A study of Mus musculus with 2 samples.

Results

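Keratin-high tumour cells were the gated tumour cells with the most Krt8 and Krt18 RNA in 2 droplet single-cell libraries of subcutaneous MC38 tumours. MC38 is a mouse colon carcinoma line, and 1 library came from tumours labelled as overexpressing UBD (ubiquitin D, also called FAT10) and 1 from control tumours. UBD is a small ubiquitin-like protein that marks other proteins for the proteasome. Both libraries hold all cells of the dissociated tumour, host cells included, and both were counted in unique molecular identifiers (UMIs), which count captured RNA molecules. The sources used here do not give the number, strain and age of the mice, the number of tumours pooled, or the promoter and clones behind the overexpression. With 1 library a group, no test between conditions was possible, and every interval below is a 95% interval that covers counting error only.

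Members were chosen from the data. A barcode counted as a tumour cell with at least 5000 UMIs, at most 20% mitochondrial UMIs, at least 5 Cdkn2a UMIs per 10000 and 0 UMIs of Ptprc, the pan-leukocyte gene. Of 29048 barcodes, 11283 passed, and the top 15% of these by summed Krt8 and Krt18 UMIs per 10000 were the 1692 keratin-high cells. They were set against the other 9591 tumour cells within each library, and the 4 groups are called UBD members, UBD others, control members and control others where their values are listed. The limit fell at 0.5884 UMIs per 10000. The last cells inside had 0.5884, 0.5896 and 0.5901, and the nearest cells outside had 0.5883, 0.5878 and 0.5861. Most tumour cells carried no keratin UMI at all: 24.5% of UBD overexpression tumour cells and 9.31% of control tumour cells had any, so membership at the limit turned on single molecules. In the UBD overexpression library 271 members, and in the control library 28, had 1 keratin UMI. No barcode of a member was shared between the libraries, against 71 shared barcodes in all.

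Keratin 8 (type II) and keratin 18 (type I) are partners in the intermediate filaments of simple epithelia such as the colon lining. Each filament needs a keratin of each type. Keratin 8 and keratin 18 are commonly used to mark carcinoma cells of simple epithelial origin. Krt8 and Krt18 lie next to each other on chromosome 15 with their starts 23.7 kb apart. The promoters of both chosen keratins and of Phlda2 and Plet1, which had some of the largest ratios of members over others, are shown to let the sequences be compared. All are from RefSeq on GRCm38.p6, 250 bases before to 50 after the RefSeq start, 5′ to 3′ on the gene's strand, at chr15:102004293-102004592 (minus, Krt8), chr15:102027966-102028265 (plus, Krt18), chr7:143502475-143502774 (minus, Phlda2) and chr9:50494275-50494574 (plus, Plet1). Capitals mark matches on either strand to 4 searched motifs. The TATA box was searched as TATAAA. The AP-1 motif was searched as TGANTCA and the TEAD motif as GGAATG, and the GC box was searched as GGGCGG.
Krt8: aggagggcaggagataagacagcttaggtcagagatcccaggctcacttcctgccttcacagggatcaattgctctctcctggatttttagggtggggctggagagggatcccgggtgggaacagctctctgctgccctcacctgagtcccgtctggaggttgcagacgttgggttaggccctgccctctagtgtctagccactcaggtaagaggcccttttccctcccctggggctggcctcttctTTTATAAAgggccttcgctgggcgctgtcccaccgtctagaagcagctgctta
Krt18: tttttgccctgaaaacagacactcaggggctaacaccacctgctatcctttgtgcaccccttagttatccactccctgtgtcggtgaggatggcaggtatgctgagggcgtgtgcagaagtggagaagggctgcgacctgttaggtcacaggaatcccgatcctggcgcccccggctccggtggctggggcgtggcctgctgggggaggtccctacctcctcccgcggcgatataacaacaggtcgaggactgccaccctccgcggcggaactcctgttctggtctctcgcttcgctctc
Phlda2: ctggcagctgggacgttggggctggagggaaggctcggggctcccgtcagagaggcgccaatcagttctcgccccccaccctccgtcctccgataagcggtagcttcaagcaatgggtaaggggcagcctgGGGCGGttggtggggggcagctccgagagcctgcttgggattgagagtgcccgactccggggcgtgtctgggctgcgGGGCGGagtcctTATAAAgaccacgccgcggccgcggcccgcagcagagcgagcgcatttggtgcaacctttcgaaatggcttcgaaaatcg
Plet1: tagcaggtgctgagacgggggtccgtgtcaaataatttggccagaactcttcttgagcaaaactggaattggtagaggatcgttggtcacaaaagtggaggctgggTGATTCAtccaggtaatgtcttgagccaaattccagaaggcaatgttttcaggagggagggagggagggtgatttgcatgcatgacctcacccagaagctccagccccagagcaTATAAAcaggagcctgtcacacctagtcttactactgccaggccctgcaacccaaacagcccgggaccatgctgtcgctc
TATAAA matched in Krt8, Phlda2 and Plet1 and not in Krt18, and 13.6% of 32851 RefSeq promoters of this length hold it. In Phlda2 and Plet1 the match began at position -30 from the RefSeq start. In Krt8 a pair of overlapping matches on opposite strands spanned the start. TGANTCA matched once, in Plet1, and is in 7.81% of promoters. GGGCGG matched at 2 places in Phlda2 and is in 35.7% of promoters, and GGAATG, in 14.7% of promoters, matched in none of the 4. These are matches of letters, not sites of binding.

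The keratin-high cells made up a larger share of the UBD overexpression tumour cells. There were 1462 members among 7493 tumour cells in the UBD overexpression library (19.5%, Clopper-Pearson interval 18.6% to 20.4%) and 230 among 3790 in the control library (6.07%, 5.33% to 6.88%), a ratio of 3.22. With every tumour cell that had a Krt8 UMI taken in place of the members, the shares were 7.41% in the UBD overexpression library and 5.59% in the control library. The limit was common to both libraries, so these shares describe the choice of members. Members had a median of 18486 UMIs in the UBD overexpression library, against 17354 in its other tumour cells. In the control library the medians were 29460 in members and 24680.5 in the others. Scrublet predicted 2.33% of UBD overexpression members and 1.96% of the others as doublets, and 1.74% of control members and 1.57% of the others. Keratin UMIs also reached cells that should lack them. Among immune barcodes of 5000 or more UMIs, 4.14% had a keratin UMI in the UBD overexpression library (median 8889 UMIs) and 0.719% in the control library (median 7053), and 3.40% and 0.575% of the 2 sets were at or over the limit. Keratin shares in tumour cells were above those in immune barcodes in both libraries, and tumour cells were also deeper.

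The 2 keratins were found together in a larger share of control members than of UBD overexpression members, and control cells were also deeper. Among UBD overexpression members 29.1% had a Krt8 UMI, 82.2% a Krt18 UMI and 11.3% both. Among control members 63.9% had a Krt8 UMI, 75.7% a Krt18 UMI and 39.6% both. The rule fixed that each member had at least 1 of them, so all tumour cells of a library give the fairer reading of pairing. Of UBD overexpression tumour cells with a Krt8 UMI, 30.3% also had Krt18, against 18.5% of those without Krt8. In the control library Krt18 was present in 43.9% of tumour cells with Krt8 and in 3.94% of those without. Krt18 was thus more frequent among cells with Krt8 in both libraries, and many UBD overexpression cells carried Krt18 RNA with no Krt8 RNA detected. Members were also deeper than the other tumour cells within each library, and the part of depth in this pairing was not tested. In level, Krt8 was 194 CPM (a gene's UMIs per 1000000 summed UMIs of the group) and Krt18 367 CPM in UBD overexpression members, and Krt8 was 158 and Krt18 179 CPM in control members. In immune barcodes Krt8 was 3.93 and Krt18 2.87 CPM in the UBD overexpression library, and Krt8 was 0.360 and Krt18 0.675 CPM in the control library.

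The cell type label was met by the keratins that chose the cells and only partly by the other markers. The 3 markers that the rule did not use are Areg, which encodes the EGF receptor ligand amphiregulin, Itga6, the integrin alpha 6 chain that binds laminin, and Col18a1, a basement membrane collagen. In control members Areg was 311 CPM against 109 CPM in other tumour cells, a ratio of 2.85 (2.72 to 2.98). Col18a1 was 239 CPM in control members and 113 CPM in the others (2.11-fold), and Itga6 was 99.5 CPM in control members and 63.6 CPM in the others (1.56-fold). In the UBD overexpression library none of the 3 reached 1.5-fold: Areg was 221 CPM in members and 176 CPM in the others (1.26-fold, 1.23 to 1.30). Itga6 was 185 CPM in UBD members and 156 in UBD others (1.19-fold), and Col18a1 was 430 CPM in UBD members and 369 in UBD others (1.17-fold). The UBD overexpression members thus met the label by the keratins of the rule, with the other 3 markers within 1.5-fold of the other tumour cells.

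Several classical colon epithelial genes were nearly absent. Epcam, the epithelial cell adhesion molecule, was 0.0627 CPM in UBD overexpression members and 0.0668 CPM in the others, and had 0 UMIs in both control groups. Cdh1, which encodes E-cadherin, was 0.220 CPM in UBD overexpression members and 0.0584 CPM in the others, and had 0 UMIs in control members, where 3 counts would be 0.416 CPM. Esrp1, Ovol1, Ovol2, Cdx1, Cdx2 and Hnf4a, which encode splicing and transcription factors of epithelium and intestine, had 0 UMIs in the members of both libraries. Sox9, Klf4 and Klf5 of the same list of 17 were expressed in all 4 groups, and within 1.5-fold between members and others of each library. Sox9, a factor of gut crypts, was 497 CPM in UBD members, 467 in UBD others, 436 in control members and 458 in control others. Klf4 was 127 CPM in UBD members, 119 in UBD others, 196 in control members and 192 in control others, and Klf5 lay between 22.04 and 40.5 CPM. Foxa1, at 0.502 CPM in UBD members and 0.0918 in UBD others, was the 1 gene of the list past 1.5-fold between members and others. Between the members of the 2 libraries, Klf4, Klf5 and Foxa1 were lower past 1.5-fold in UBD overexpression members. Muc2, Tff3, Fcgbp, Clca1 and Zg16, which encode secreted products of goblet cells, had 0 UMIs in the members of both libraries, although the series' own text speaks of goblet cells. Krt20, the keratin of mature colon cells, had 0 UMIs in all 4 groups. Krt19, another simple keratin, was 9.19 CPM in UBD overexpression members and 7.59 CPM in the others, and 13.6 CPM in control members and 14.9 CPM in the others. Krt7 went opposite ways in the 2 libraries at low level, with 1.10 CPM in UBD members, 2.48 in UBD others, 1.80 in control members and 0.237 in control others, and this difference was not tested. Krt23 was at most 1.34 CPM and Krt80 at most 1.94 CPM in any group. Of the keratins of stratified epithelia, Krt15 was 5.55 CPM in control members and 1.94 in control others, Krt17 was 3.33 CPM in control members and 0.651 in control others, and both were under 0.2 CPM in the UBD overexpression library. Krt6a had 0 UMIs in all 4 groups.

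Other cell types were looked for in the members by fixed marker lists. In UBD members the lymphocyte list summed to 4.89 CPM, the neutrophil list to 1.51 CPM, the mesothelial list to 4.99 CPM and the mammary and gland list to 0.721 CPM. In control members these lists summed to 5.55, 3.47, 6.38 and 0 CPM. Endothelial genes summed to 57.0 CPM in UBD members, 67.3 in UBD others, 146 in control members and 71.3 in control others. Genes of this list went different ways. Of 5 measured in each library, Pecam1 and Cdh5 were higher past 1.5-fold in UBD members and 0 lower. In control members Plvap was higher and Pecam1 lower, with a median log2 ratio of 0.000. Skin keratinocyte genes summed to 28.8 CPM in UBD overexpression members and 31.2 CPM in control members. Krt10 was 25.1 CPM of that in the members of each library. Lor, loricrin of the skin barrier, was 3.61 CPM in control members and 2.18 in control others, past 1.5-fold, with Krt5, Krt14, Krt1 and Flg at 0 in the members of both libraries. Macrophage genes summed to 411 CPM in UBD overexpression members and 578 CPM in the others, and to 407 CPM in control members and 217 CPM in the others. The gene of the list with the most UMIs in members was Fcer1g, the shared Fc receptor gamma chain, at 258 CPM in UBD members, 433 in UBD others, 206 in control members and 68.6 in control others. It was the 1 gene of 12 lower past 1.5-fold in UBD members, where the list's median log2 ratio was -0.02 (-0.26 to 0.20). In control members Fcer1g, Lyz2 and Mrc1 were higher, with a median of 0.39 (0.04 to 0.81).

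Genes whose levels differed between members and other tumour cells were counted in each library. A gene was measured with at least 50 summed UMIs and 20 CPM in either group, and called past 1.5-fold with an interval that excluded 1. In the UBD overexpression library 47 of 5354 genes were higher in members (0.878%) and 107 lower (2%). For control members 204 of 5524 were higher (3.69%) and 322 lower (5.83%). Of 5112 genes measured in both, 21 were higher in both (0.411%) and 70 lower in both (1.37%). Shares of overlap were taken over genes measured in both libraries. Of these, 38 were higher in UBD overexpression members and 170 in control members, and the 21 were 55.26% and 12.35% of them. In the same way 91 and 231 were lower, and the 70 were 76.92% and 30.3% of them. Across genes, which are not independent, the log2 ratios of the 2 libraries had Pearson r = 0.586, with their median at 0.02 and 0.05.

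Among the genes higher in members of both libraries, Phlda2 and Plet1 were prominent. Phlda2 encodes a small imprinted pleckstrin-domain protein that limits placental growth. It was 85.4 CPM in UBD overexpression members and 16.5 CPM in the others, a ratio of 5.19 (4.895 to 5.50). Control members had 32.5 CPM and the others 8.07 CPM, a ratio of 4.02 (3.47 to 4.66). Plet1 encodes a surface protein of trophoblast and epithelial progenitors. It was 34.3 CPM in UBD overexpression members and 7.22 CPM in the others (4.75-fold, 4.34 to 5.197), and 28.3 CPM in control members and 2.89 CPM in the others (9.79-fold, 8.15 to 11.8). Both genes were low in immune barcodes, where Phlda2 was at most 2.14 CPM and Plet1 at most 5.99 CPM.

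Bace2, an aspartyl protease related to the beta-secretase, was at the same level in members of the 2 libraries. It was 24.2 CPM in members and 4.87 CPM in the others of the UBD overexpression library (4.96-fold), and 24.2 CPM in members and 3.098 CPM in the others of the control library (7.80-fold). Uchl1 encodes a ubiquitin hydrolase abundant in neurons. It was 21.0 CPM in UBD overexpression members and 6.79 CPM in the others (3.08-fold), and 130 CPM in control members and 10.4 CPM in the others (12.6-fold). Serinc2, a membrane protein of the serine incorporator family, was 25.5 CPM in UBD members and 10.3 in UBD others (2.49-fold), and 68.0 in control members and 6.84 in control others (9.95-fold). Both ratios were larger in the control library, and the difference between the libraries was not tested.

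Membrane and adhesion genes stood among the rest. Ano1, a calcium-activated chloride channel, was 22.01 CPM in UBD overexpression members and 11.2 CPM in the others, and 21.2 CPM in control members and 5.74 CPM in the others. Cadm1, an immunoglobulin-type adhesion molecule, was 24.8 CPM in UBD members, 12.7 in UBD others, 28.5 in control members and 12.7 in control others. Cd24a, a glycoprotein of epithelial and progenitor cells, was 20.01 CPM in UBD members, 11.8 in UBD others, 22.1 in control members and 5.56 in control others. Sema5a, a semaphorin, was 22.7 CPM in UBD members, 14.1 in UBD others, 22.2 in control members and 7.57 in control others. Each was past 1.5-fold higher in members of both libraries. Dtx2, Dnase2a, Upp1, Sh2d5, Gdpd5 and Ggct, which include a Deltex ubiquitin ligase (Dtx2), a lysosomal nuclease (Dnase2a), uridine phosphorylase (Upp1) and a glutathione-cycle enzyme (Ggct), had log2 ratios of 0.66 to 0.90 in the UBD overexpression library and of 0.72 to 1.48 in the control library. Ccnd1, cyclin D1 of the G1 phase, passed 1.5-fold in both libraries, at 911 CPM in UBD overexpression members and 607 CPM in the others, and 749 CPM in control members and 490 CPM in the others.

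**Figure D1:**
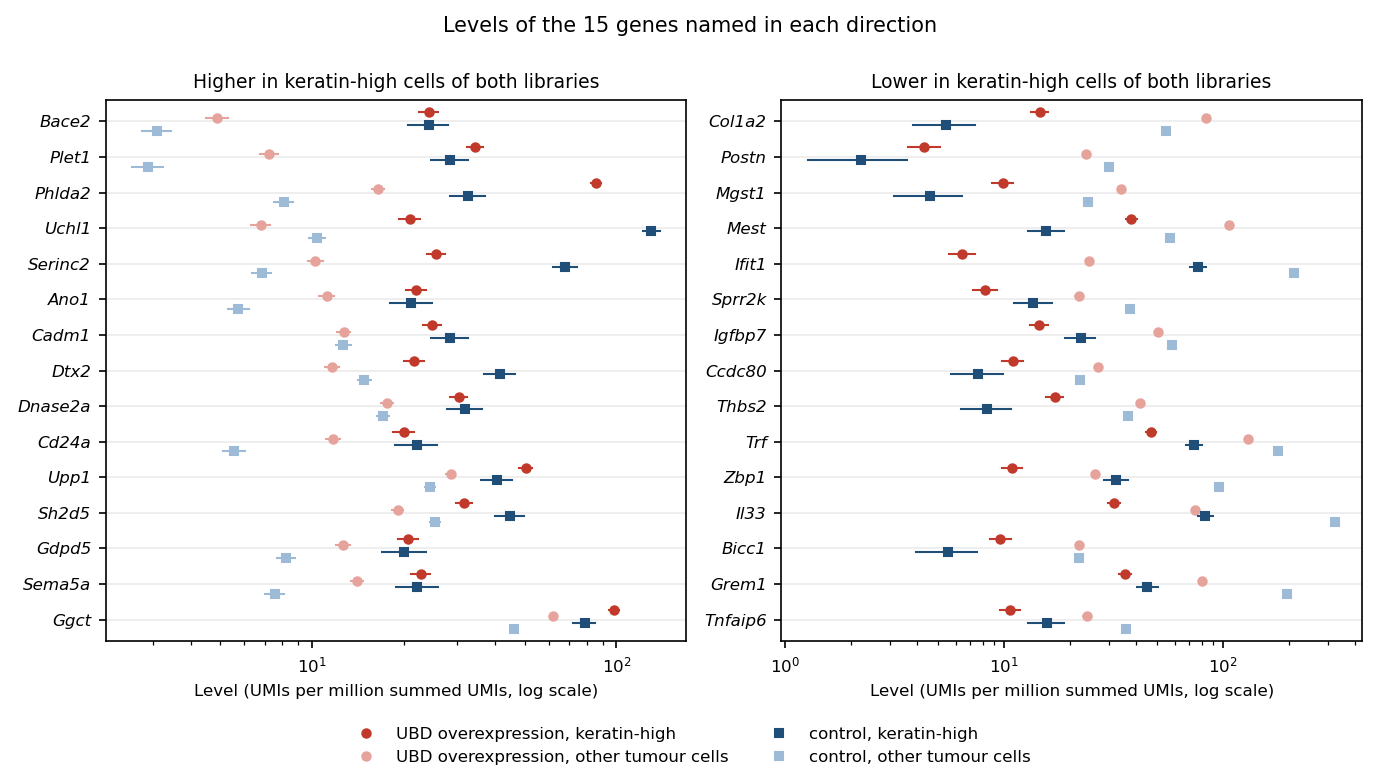
Level of each of the 15 genes named as higher (left) and as lower (right), in CPM on a log axis, in keratin-high and other tumour cells of the UBD overexpression (circles) and control (squares) libraries; lines are 95% counting intervals. For Phlda2 the points stand at 85.4, 16.5, 32.5 and 8.07. The genes were chosen as past 1.5-fold the same way in both libraries, so their shared direction follows from that choice.

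The 15 genes named as lower in members were led by matrix genes. Col1a2, a chain of type I collagen, was 14.6 CPM in UBD overexpression members and 84.0 CPM in the others, so it was 5.77-fold lower in members (5.26 to 6.35). Control members had 5.41 CPM and the others 54.7 CPM, 10.1-fold lower (7.38 to 14.2). Postn, the matrix protein periostin, was 4.33 CPM in UBD members, 23.7 in UBD others, 2.22 in control members and 30.1 in control others. Thbs2, a matricellular thrombospondin, was 17.0 CPM in UBD members, 41.6 in UBD others, 8.33 in control members and 36.9 in control others. Grem1, a secreted BMP antagonist of stroma, was 35.7 CPM in UBD members, 80.2 in UBD others, 45.1 in control members and 195 in control others. Il33, an alarmin cytokine, was 31.8 CPM in UBD members, 74.6 in UBD others, 83.0 in control members and 323 in control others. Mest, an imprinted gene of fetal mesoderm, was 38.2 CPM in UBD members, 107 in UBD others, 15.5 in control members and 57.2 in control others.

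Mgst1, Igfbp7, Ccdc80, Trf, Bicc1, Tnfaip6, Sprr2k, Ifit1 and Zbp1 completed that set. They include a microsomal glutathione transferase (Mgst1), a secreted growth factor binding protein (Igfbp7), transferrin (Trf) and a hyaluronan-binding protein (Tnfaip6). Their log2 ratios ran between -1.93 and -1.16 in the UBD overexpression library and between -2.40 and -1.21 in the control library. Sprr2k has near-identical copies among which reads can be split, so its level is uncertain.

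**Figure D2:**
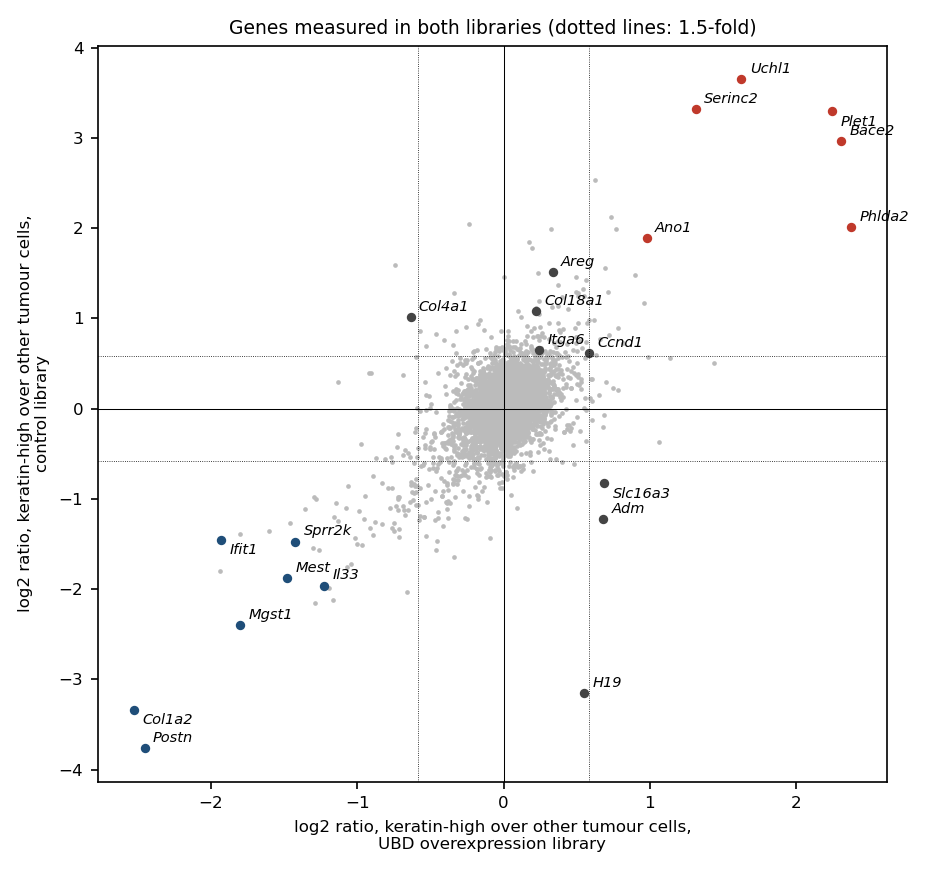
Each grey point is a gene measured in both libraries, placed by its log2 ratio of keratin-high over other tumour cells in the UBD overexpression library (x) and the control library (y); dotted lines mark 1.5-fold. Red genes are among those named as higher, blue among those named as lower and black the others discussed; Uchl1 lies at 1.63 and 3.65, and Postn at -2.45 and -3.76.

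Levels were also compared across bins of keratin level. In the UBD overexpression library Phlda2 was 14.7 CPM in tumour cells with no keratin UMI and 33.6 CPM in those with some below the limit. Among members it was 38.3 CPM up to 2 keratin UMIs per 10000, 83.4 CPM from 2 to 5 and 136 CPM at 5 and above. Plet1 was 5.98, 19, 14.9, 20.8 and 66.5 CPM in the same bins. Plet1 was thus highest in the 455 cells of the top bin and not ordered below it. Col1a2 ran the other way, at 87.4, 50.8, 17.9, 12.5 and 13.0 CPM. In the control library Uchl1 was 8.22 CPM without keratin, 46.7 CPM below the limit, and 109, 156 and 138 CPM in the member bins. Control Phlda2 was 7.58, 16.4, 23.8, 48.1 and 26.7 CPM in the 5 bins, so its top bin was below the one before. Control Col1a2 was 56.9, 17.0, 4.59, 7.88 and 3.06 CPM. UBD overexpression Plet1 was higher just under the limit than in the lowest member bin. For the other genes given here, cells just under the limit lay between the keratin-free cells and the members. They were also deeper than both, with a median of 26282 UMIs in the UBD overexpression library and 40678 in the control library, since a single keratin UMI falls below the limit only in a deep cell.

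**Figure D3:**
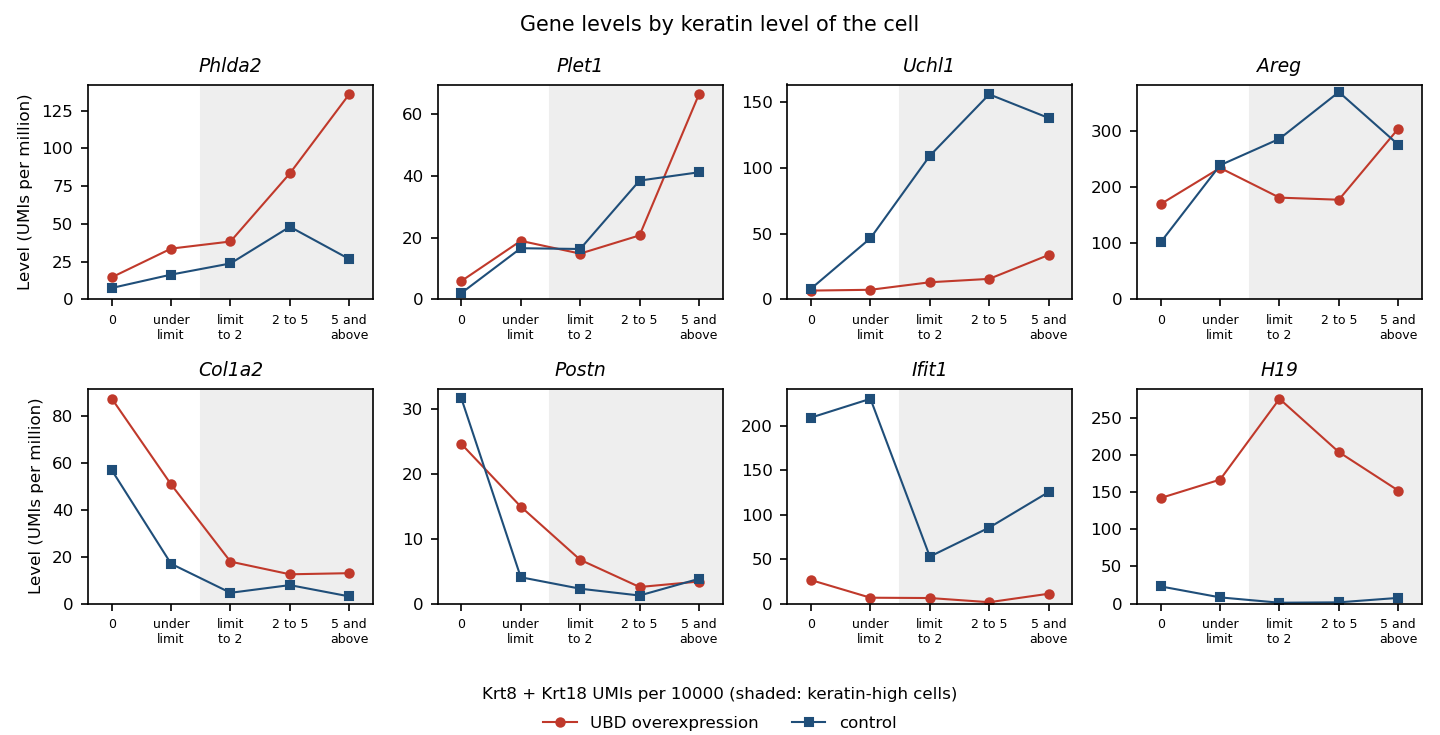
Level in CPM (y) of 8 genes in tumour cells binned by Krt8 plus Krt18 UMIs per 10000 (x, low to high) in the UBD overexpression and control libraries; the shaded bins are the keratin-high cells. Phlda2 climbs to 136 in the top UBD overexpression bin, Col1a2 drops to 13.0 there, and H19 peaks at 275 in the lowest member bin.

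Gene lists were described by how many of their genes, measured with at least 20 summed UMIs, passed 1.5-fold each way. Under this looser filter 2.77% of 13960 genes were higher and 5.97% lower in UBD overexpression members, and 5.43% of 13913 were higher and 8.55% lower in control members, with median log2 ratios of -0.02 and -0.01 over all of them. The interval of a list's median is over its genes.

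Epithelial junction and polarity genes had medians above those backgrounds, mostly at very low levels. In the UBD overexpression library 6 of 14 measured genes were higher and 0 lower, with a median log2 ratio of 0.53 (0.10 to 1.08). Among control cells 4 of 12 were higher and 1 lower, with a median of 0.46 (-0.24 to 1.26). Jup, plakoglobin of desmosomes and adherens junctions, was 39.8 CPM in UBD overexpression members and 34.8 CPM in the others, and 41.8 CPM in control members and 12.2 CPM in the others. Pkp2, the desmosomal plakophilin 2, was 2.76 CPM in UBD members, 1.49 in UBD others, 4.02 in control members and 0.898 in control others. Pkp3 and Pkp2 were higher in members of both libraries. Tjp1, the tight junction scaffold ZO-1, was within 1.5-fold in both, at 50.8 CPM in UBD members, 52.4 in UBD others, 41.9 in control members and 38.3 in control others. Of 29 junction genes, 9 had 0 UMIs in UBD overexpression members and 13 in control members.

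A list of genes seen with simple epithelium held 4 of 18 higher and 2 lower in UBD overexpression members, and 10 higher and 2 lower in control members. Tspan8, a tetraspanin of gut epithelium, was 41.3 CPM in UBD overexpression members and 26.6 CPM in the others, and 14.4 CPM in control members and 3.996 CPM in the others. Cst6, a secreted cysteine protease inhibitor, was 82.1 CPM in UBD members, 72.8 in UBD others, 71.1 in control members and 19.7 in control others. Cd9, another tetraspanin, was 596 CPM in UBD members, 548 in UBD others, 917 in control members and 453 in control others. Both passed 1.5-fold in the control library only, and the difference between the libraries was not tested. Lcn2 and Slpi, secreted defence proteins, were lower in members of both libraries, with Slpi at 180 CPM in UBD members, 340 in UBD others, 388 in control members and 970 in control others.

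Of 11 laminin-binding integrin and hemidesmosome genes, 1 was higher in UBD overexpression members and 4 in control members, and 0 were lower in either; the difference between the libraries was not tested. Itga3, the partner chain in a laminin receptor, was 19.8 CPM in UBD members, 12.6 in UBD others, 20.3 in control members and 9.79 in control others. Itgb4, of hemidesmosomes, was 5.11 CPM in UBD members, 3.61 in UBD others, 6.80 in control members and 2.29 in control others. Cd151, a tetraspanin partner of these integrins, was 32.9 CPM in UBD members, 32.1 in UBD others, 34.7 in control members and 22.98 in control others. Itgb1, Itga2, Itga7, Dst, Plec, Col17a1, Dag1 and Bcam did not pass 1.5-fold in either library, with Bcam too low to measure. Basement membrane genes had 0 higher and 4 lower of 17 in UBD overexpression members, and 5 higher and 3 lower of 18 in control members. Npnt, a ligand of integrin alpha 8 beta 1, was 26.7 CPM in UBD overexpression members and 21.3 CPM in the others, and 92.4 CPM in control members and 23.2 CPM in the others. Ereg, epiregulin, was 103 CPM in UBD members, 131 in UBD others, 187 in control members and 280 in control others, and Hbegf, heparin-binding EGF, 203 CPM in UBD members, 193 in UBD others, 358 in control members and 313 in control others. Tgfa, Egf, Epgn and Nrg1 were below 9 CPM in every group, with Nrg1, a ligand of ERBB3 and ERBB4, lower past 1.5-fold in control members. Among 7 measured EGF receptor ligands Areg was past 1.5-fold in the control library and Btc, betacellulin, in the UBD overexpression library. Egfr, the receptor itself, was 16.6 CPM in UBD members, 21.8 in UBD others, 10.6 in control members and 21.7 in control others, lower past 1.5-fold in control members.

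Interstitial matrix and mesenchymal genes were lower in members as a list. In the UBD overexpression library 0 of 30 were higher and 13 lower, with a median log2 ratio of -0.37 (-0.75 to -0.30), and in the control library 1 was higher and 13 lower, with a median of -0.45 (-0.94 to -0.23). Col1a1 was 301 CPM in UBD overexpression members and 620 CPM in the others, and 161 CPM in control members and 530 CPM in the others. Col3a1 was 377 CPM in UBD members, 633 in UBD others, 222 in control members and 566 in control others. Acta2, smooth muscle actin, was 19.6 CPM in UBD members, 41.2 in UBD others, 18.3 in control members and 61.7 in control others. Vim, the mesenchymal filament vimentin, stayed within 1.5-fold, at 2784 CPM in UBD members, 2450 in UBD others, 2753 in control members and 3559 in control others, and was thus above Krt8 and Krt18 in UMIs in members of both libraries. Tnc, tenascin C, was the gene higher in control members, at 182 CPM, against 99.2 in control others. Fibroblast markers, many of which are matrix genes that MC38 cells also carry, had 7 of 10 lower in UBD overexpression members and 6 of 10 in control members. In sum they were 711 CPM in UBD overexpression members and 1024 CPM in the others, and 660 CPM in control members and 1130 CPM in the others, and the part of host fibroblast RNA in this was not tested.

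Type I interferon response genes, which cells raise on sensing interferon, were lower in members of both libraries. In UBD overexpression members 15 of 20 were lower and 0 higher, with a median log2 ratio of -1.24 (-1.57 to -0.72). In control members 19 of 20 were lower and 0 higher, with a median of -1.27 (-1.45 to -0.96), which became -0.63 with every cell that had a keratin UMI as a member and -0.62 with every cell that had a Krt8 UMI. Ifit1, an interferon-induced RNA-binding protein, was 6.43 CPM in UBD overexpression members and 24.5 CPM in the others, and 76.9 CPM in control members and 210 CPM in the others. Isg15, an interferon-induced ubiquitin-like modifier, was 12.4 CPM in UBD members, 31.7 in UBD others, 108 in control members and 234 in control others. Zbp1, a sensor of Z-form nucleic acid, was 10.9 CPM in UBD members, 26.1 in UBD others, 32.5 in control members and 96.1 in control others. Of 16 MHC class I presentation genes, 8 were lower and 0 higher in members of each library. Tap1, of the peptide transporter, was 7.12 CPM in UBD members, 13.4 in UBD others, 20.1 in control members and 38.1 in control others. B2m, the class I light chain, was 715 CPM in UBD members, 1042 in UBD others, 1254 in control members and 1899 in control others, past 1.5-fold in the control library. Among 19 NF-kB targets and chemokines 6 were lower and 1 higher in UBD overexpression members, and 10 lower and 0 higher in control members. Cxcl10, an interferon-induced T cell chemokine, was 90.4 CPM in UBD members, 175 in UBD others, 606 in control members and 1414 in control others. Ccl2, a monocyte chemokine, was 210 CPM in UBD members, 335 in UBD others, 713 in control members and 1611 in control others. The checkpoint ligand gene Cd274 (PD-L1) was 2.45 CPM in UBD members, 3.35 in UBD others, 7.36 in control members and 6.94 in control others. The classical class I heavy chains were within 1.5-fold, with H2-K1 at 46.0 CPM in UBD members, 57.1 in UBD others, 159 in control members and 177 in control others, and H2-D1 at 238 CPM in UBD members, 330 in UBD others, 582 in control members and 721 in control others. The macrophage list, given above, had median log2 ratios of -0.02 in the UBD overexpression library and 0.39 in the control library. Interferon genes also moved with library: every group of control cells stood above both groups of UBD overexpression cells for Ifit1, Isg15 and Cxcl10. Gm42418, a transcript that overlaps ribosomal RNA sequence and is read as an RNA quality marker, stood at 910 CPM in UBD overexpression members and 1007 CPM in the others, and 2010 CPM in control members and 2430 CPM in the others, and its part in these differences was not tested.

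**Figure D4:**
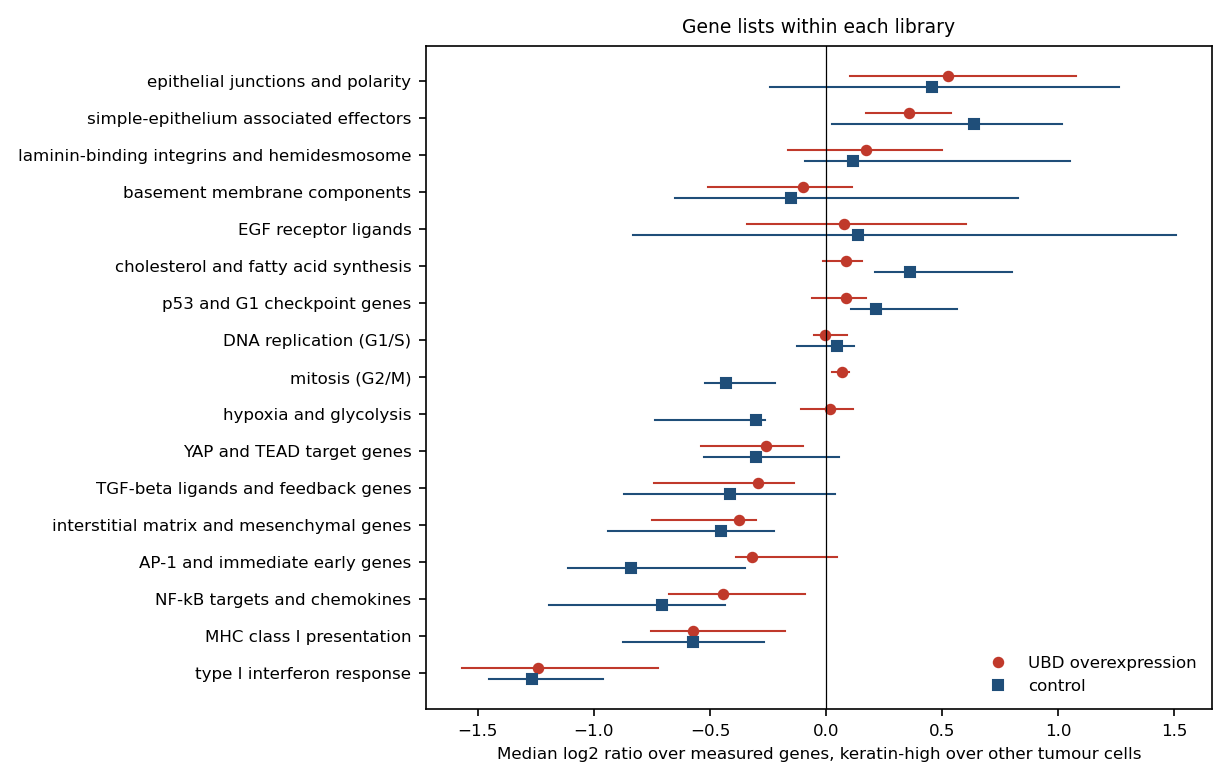
Median log2 ratio of keratin-high over other tumour cells (x) over the measured genes of 17 lists (rows) in the UBD overexpression (circles) and control (squares) libraries; lines are order-statistic intervals over genes. Type I interferon genes lie at -1.24 and -1.27, and mitosis genes at 0.07 and -0.43, of which the first changed sign under 3 alternatives.

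Some lists, such as the AP-1 and cholesterol lists, were lower or higher past 1.5-fold mainly in the control library. Others, such as the YAP and TGF-beta lists, had nearer counts in the 2 libraries. The difference between libraries was not tested. AP-1 and immediate early genes were lower for 1 of 15 in UBD overexpression members and 11 of 15 in control members. Fos was 1028 CPM in UBD overexpression members and 1337 CPM in the others, and 622 CPM in control members and 1262 CPM in the others. Cholesterol and fatty acid synthesis genes were higher for 0 of 24 in UBD overexpression members and 9 of 24 in control members. Msmo1, a sterol oxidase, was 134 CPM in UBD members, 104 in UBD others, 171 in control members and 77.5 in control others. Mitosis genes were lower for 0 of 20 and 5 of 20, with Ube2c at 274 CPM in UBD members, 261 in UBD others, 206 in control members and 329 in control others, whereas 0 of 19 DNA replication genes passed in either library. The mitosis median of 0.07 in the UBD overexpression library was -0.09 with Krt8 alone, -0.08 with at most 1 UMI of 5 myeloid genes and -0.03 matched on depth, and that of -0.43 in the control library was -0.005 with few myeloid UMIs. Hypoxia and glycolysis genes had 1 of 21 higher in UBD overexpression members and 7 of 21 lower in control members. Among 20 YAP and TEAD targets 3 were lower in UBD overexpression members, and 5 lower and 1 higher in control members. The higher gene was Nt5e, which encodes the ectonucleotidase CD73, at 24.8 CPM in control members and 4.67 CPM in the others. TGF-beta ligands and feedback genes had 5 and 6 of 18 lower in UBD overexpression and control members. In a list of 9 genes around Serpinb2, Il11 and Crabp1, 4 were lower and 2 higher in UBD overexpression members. The 2 higher genes were Crabp1 and Cd34. In control members 6 of the 9 were lower and 0 higher. Serpinb2, a clade B serpin, was 1.73 CPM in UBD members, 3.08 in UBD others, 13.7 in control members and 47.8 in control others. The cytokine gene Il11 was 1.60 CPM in UBD members, 6.91 in UBD others, 25.7 in control members and 75.03 in control others. Dissociation stress genes were lower for 1 of 12 and 5 of 12, and they share Fos, Jun and Egr1 with the AP-1 list.

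Cells led by Krt8 and cells led by Krt18 differed within the UBD overexpression library. These classes were set after seeing the data, as at least 3 UMIs of 1 keratin and 0 of the other, or at least 3 of both, and the genes named were picked by their ratio. There were 162 Krt8-led, 74 double and 710 Krt18-led members, with median depths of 21352.5, 26591.5 and 21583 UMIs. Another 516 UBD overexpression members and 102 control members fell in none of these classes. Plet1 was 108 CPM in Krt8-led cells, 86.2 CPM in double cells and 14.96 CPM in Krt18-led cells, against 7.22 CPM in tumour cells outside the members. Areg was 475, 452 and 143 CPM in the 3 classes, against 176 CPM outside, so Krt18-led cells were below the non-members. Alcam, an immunoglobulin-type adhesion molecule, was 144, 138 and 52.7 CPM, against 46.0 CPM outside. Npnt was 65.5, 49.2 and 15.2 CPM, and Krt19 26.7, 36.1 and 2.39 CPM. Phlda2 did not follow that split, at 92.7, 114 and 94.3 CPM, against 16.5 CPM outside. Bace2 was likewise 23.4, 23.02 and 29.6 CPM, against 4.87 CPM outside.

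At the Krt18 end were H19, Meg3 and Crabp1. H19, an imprinted noncoding RNA of fetal tissue that neighbours Igf2, was 30.0 CPM in Krt8-led cells, 26.6 CPM in double cells and 249 CPM in Krt18-led cells, against 144 CPM outside. Meg3, another imprinted noncoding RNA, was 1.76, 16.3 and 56.4 CPM, against 31.6 CPM outside. Crabp1, a retinoic acid binding protein, was 1.76, 4.97 and 32.3 CPM. Of the contrasts, some ran the same way in the 30 Krt8-led, 39 double and 59 Krt18-led control cells and some did not. Plet1 was 54.0, 25.1 and 22.1 CPM in these control classes, Npnt 106, 94.2 and 76.5 CPM and Alcam 101, 86.4 and 77.5 CPM, each higher in Krt8-led than in Krt18-led cells with an interval that excluded 1, as in the UBD overexpression library. Areg was 238, 280 and 401 CPM, Krt19 6.11, 8.92 and 25.5 CPM and Meg3 79.5, 50.7 and 38.8 CPM, each in the opposite direction from the UBD overexpression library. Crabp1 was 221, 191 and 189 CPM. The difference between the libraries was not tested. Macrophage genes went both ways in the Krt8-led control cells. Ccl8 was 385 CPM there and 34.3 CPM in control others. Mrc1 was 34.6 CPM and 1.90 CPM, and Fcer1g 249.5 CPM and 68.62 CPM, in the same 2 groups. C1qa was 8.148 CPM in Krt8-led, 46.25 in double and 44.63 in Krt18-led control cells, and 24.96 in control others. Lyz2 was 23.43, 54.61, 70.14 and 25.03 CPM in the same order. The part of macrophage RNA in the Krt8-led control cells was not tested.

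**Figure D5:**
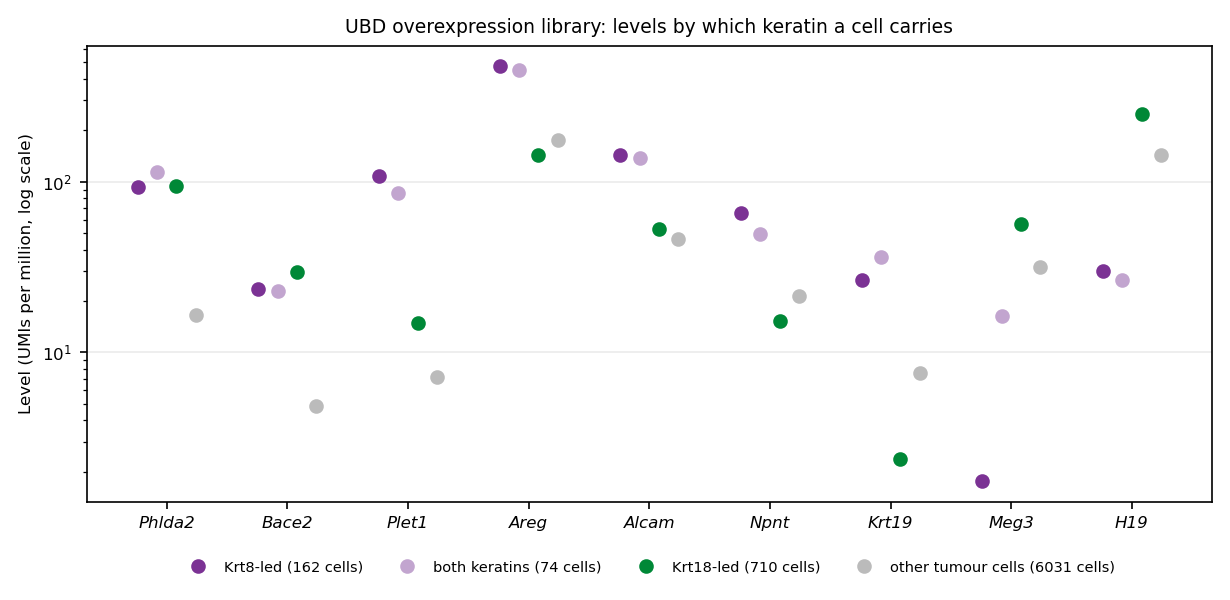
Level in CPM (y, log axis) of 9 genes in UBD overexpression tumour cells: 162 Krt8-led, 74 double and 710 Krt18-led keratin-high cells and 6031 other tumour cells. Keratin-high cells in none of these classes are not shown. Plet1 lies at 108, 86.2, 14.96 and 7.22 from left to right, whereas H19 lies at 30.0, 26.6, 249 and 144.

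H19 separated the members of the 2 libraries more than any other gene of the comparison between them. It was 211 CPM in UBD overexpression members and 2.498 CPM in control members, with 144 CPM and 22.2 CPM in the other tumour cells of the same libraries. A level of at least 5 H19 UMIs per 10000 was found in 204 UBD overexpression members (13.95%) and 0 control members, and in 537 (8.904%) and 46 (1.292%) of the other tumour cells. A count of 0 among 230 cells is a limit on cells with that level and not on expression. Within UBD overexpression members the share was 1.85% of Krt8-led, 0% of double and 17.0% of Krt18-led cells. It was 15.5% of the 516 members in none of these classes, so it was not particular to Krt18-led cells. H19 lies 923 kb from Phlda2 on chromosome 7, and both genes are imprinted.

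Between the members of the 2 libraries, 76 of 2895 genes with at least 50 CPM were higher in UBD overexpression members (2.63%) and 156 lower (5.39%). This sets 1 library against 1 other. After H19, Id3, an inhibitor of helix-loop-helix factors, was 58.3 CPM in UBD overexpression members and 17.5 CPM in control members, and Phlda2 85.4 CPM in UBD members and 32.5 in control members. Cotl1, Slc14a1, Ociad2, Gng11, Gja1, Mllt3 and Pmepa1 had log2 ratios of 1.12 to 1.31. Cotl1, an actin-binding protein, is in reach of free RNA in control members, at 26.6 CPM against 337 CPM in control immune barcodes. Among the rest Gja1, the gap junction protein connexin 43, was 101 CPM in UBD members and 46.2 in control members.

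Genes lower in UBD overexpression members were led by interferon genes. Ifit1 was 6.43 CPM in UBD overexpression members and 76.9 CPM in control members, Isg15 12.4 in UBD members and 108 in control members, and Cxcl10 90.4 in UBD members and 606 in control members. Over the 20 genes of that list 19 were lower and 0 higher (9.98% and 6.86% of 12226 genes under the list filter), with a median log2 ratio of -2.75. Crabp1 was 26.3 CPM in UBD members and 186 in control members, and Uchl1 21.0 in UBD members and 130 in control members. Padi2, a peptidylarginine deiminase, was 19.6 CPM in UBD members and 70.4 in control members. In the other tumour cells the libraries were closer for Padi2 and Uchl1. Padi2 was 10.7 CPM in UBD others and 10.4 in control others, and Uchl1 was 6.79 in UBD others and 10.4 in control others. Aspscr1, Nefl, Cd34 and Apol9a were also lower, with log2 ratios of -2.47 to -1.85, and Apol9a has a near-identical copy, which leaves its level uncertain. Other tumour cells differed between the libraries too. Aspscr1 was 33.3 CPM in UBD others and 172 in control others, and Cxcl10 was 175 CPM in UBD others and 1414 in control others. Crabp1 was 17.5 CPM in UBD others and 172 in control others. Id3, named above as higher in UBD overexpression members, was 79.6 CPM in UBD others and 40.4 in control others.

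Ubd itself was barely detected. It had 31 UMIs in UBD overexpression members (0.972 CPM) and 143 in the others (1.19 CPM), and 0 in control members (up to 0.416 CPM at 3 counts) and 34 in the others (0.335 CPM). Whether the transgene ends in sequence that 3′ counting would assign to Ubd is not given in the sources used here, so these counts do not check the label. Of 9 genes of the FAT10 pathway, 0 passed 1.5-fold between members and others in either library.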

How the data were processed

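Droplet 3′ v3 libraries, per the labels' protocols, were deposited by the authors as 1 matrix of raw UMI counts per library. Cell Ranger, STAR and mm10 are named in the submitters' processing notes, and software version 3.1.0 stands in the matrix headers, per the file headers. For the annotation, the use of strand and the rule for calling cells, nothing is stated in the labels. Gene coordinates are from GENCODE on GRCm38 (31011 of 31053 gene IDs matched). Members and gene lists were chosen with earlier results of these data known.

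UMIs were summed over the cells of each group and scaled to CPM. Intervals, at 95%, were exact Poisson for CPM, exact binomial conditional on the total for ratios, and Clopper-Pearson for shares. No test was run, since there is 1 library a group, and cells are not replicates. Groups held 31888753 UMIs (UBD overexpression members), 119828428 (UBD overexpression others), 7206205 (control members) and 101364028 (control others). Genes were named by rank, 15 each way among those past 1.5-fold in both libraries by the ratio nearer 0, and 10 each way between the members of the libraries. Krt8, Krt18, Cdkn2a, Ptprc, mitochondrially encoded genes and, for naming, genes within reach of free RNA from immune barcodes (under 20% of the immune level in either library, or between the members of the libraries in both) were left out, as were Y-linked genes, Xist and provisional names. The rule also named the label markers, the 4 list members with most UMIs, the keratin, EGF ligand and integrin lists and single genes such as Cd274; further list genes and those of the Krt8-led and Krt18-led classes were chosen after their values were seen. Doublets were predicted with Scrublet in scanpy 1.11.5 at an expected rate of 0.1 and kept. The calculation was tested on simulated counts. Python 3.11.15, numpy 2.4.6, scipy 1.17.1 and pandas 2.3.3 were used. Alternatives were other limits, gates, depth handling, scaling and filters.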

Additional observations from a re-analysis of the deposited data

Results flagged for a closer look

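3 genes were past 1.5-fold in opposite directions in the 2 libraries, and the difference between the libraries was not tested. Adm, the vasoactive peptide adrenomedullin, had a log2 ratio of members over others of 0.682 in the UBD overexpression library and -1.223 in the control library, with 22.2 CPM in UBD members, 13.8 in UBD others, 18.04 in control members and 42.1 in control others. Slc16a3, a lactate exporter, had 0.688 and -0.826, with 48.9 CPM in UBD members, 30.4 in UBD others, 41.2 in control members and 73.0 in control others. Col4a1, a basement membrane collagen, had -0.636 and 1.016, with 102 CPM in UBD members, 159 in UBD others, 78.4 in control members and 38.8 in control others. Fcer1g also differed in direction (-0.744 and 1.588), at a level within reach of free RNA from immune cells.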

How the results depend on the processing

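Shares of members, in UBD overexpression and control tumour cells, were 13.24% and 3.588% at the top 10%, 24.49% and 9.314% with every cell that had a keratin UMI (all that the top 25% could reach), 13.73% and 4.538% with at least 3 keratin UMIs (chosen after seeing the data), 15% and 9.314% within each library, 7.407% and 5.594% with Krt8 alone, and 23.15% and 3.934% with at most 1 UMI of 5 myeloid genes. Genes higher in UBD overexpression members were 73 at the top 10%, 22 with Krt18 alone, 84 with Krt8 alone, 75 with at least 3 UMIs and 457 with no filter, and lower genes 855 with no filter. In control members higher genes were 113 at the top 25% and within libraries, 116 with Krt18 alone and 866 with no filter, and lower genes 1199 with no filter. Genes higher in both libraries were 35, 7, 34, 35 and 158 for the top 10%, Krt18 alone, Krt8 alone, at least 3 UMIs and no filter, and genes lower in both 341 with no filter. Between the members of the libraries no filter gave 844 and 1488. Of the values recomputed outside the main results, 1019 stayed the same, 419 moved and 2 changed sign. Both sign changes were single-gene ratios with Krt8 alone, on the log2 scale. H19 (UBD overexpression members over others) was -1.604, and Areg (UBD overexpression over control members) was 0.5202.

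List medians (log2) moved as follows. Simple keratins in the UBD overexpression library were 0.497, 0.321 and 0.352 at the top 10%, within libraries and with Krt8 alone. AP-1 genes there were -0.398 with Krt8 alone and -0.407 with at least 3 UMIs, and cholesterol genes 0.16 at the top 10%. Type I interferon genes in the control library were -0.627 at the top 25% and within libraries, -0.917 with Krt18 alone and -0.622 with Krt8 alone. Mitosis genes in the UBD overexpression library turned to -0.087 with Krt8 alone, -0.084 with few myeloid UMIs and -0.031 matched on depth, and were 0.147 at the top 25%, 0.247 with Krt18 alone, 0.116 with equal weight per cell and 0.154 with at least 3 UMIs. In the control library they were -0.041 at the top 25% and within libraries, -0.153 and -0.098 with Krt18 and Krt8 alone, -0.575 with at least 10000 UMIs and -0.005 with few myeloid UMIs. The cause of these shifts was not tested. No paired analysis was possible because each group is 1 library.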
